A study of Mus musculus with 4 samples.

Results

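The genes described here are 10 that macrophages are known to switch on, or to need, when interleukin 4 or interleukin 13 acts on them: Chi3l3, Chi3l4, Retnla, Ear1, Ear2, Il4ra, Il13ra1, Ccl17, Ccl22 and Alox15. They were picked by symbol, and all 10 are among the 23420 genes of the table. RNA-seq had been run on 4 libraries of myeloid cells positive for both CD11b and CD200R1, sorted from orthotopic skin squamous cell carcinomas, that is, tumours grown at their natural site, in FVB/N mice. The WT group holds 2 of them, from wild-type tumours, and the EpiKO group the remaining pair, with the genotype K14Cre;CD200fl/fl, in which a Cre recombinase under the keratin 14 promoter removes Cd200 from keratinocytes and other cells that use that promoter, and myeloid cells are not a target of that promoter. The WT group is described only as wild type, so whether it carried the floxed allele without Cre is not given in the sources used here, and neither are the age of the mice and the age of the tumours. Replicates were numbered in sample order. Whether they were separate mice or pools is not stated, so a p-value here measures the spread between libraries alone, part or all of which may be technical.

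Interleukin 4 and interleukin 13 are cytokines of type 2 immunity, made chiefly by helper T cells, innate lymphoid cells, basophils and eosinophils. On macrophages they bind receptors that contain the IL-4 receptor alpha chain (Il4ra), paired with the common gamma chain (Il2rg) or with the IL-13 receptor alpha 1 chain (Il13ra1). Janus kinases on these chains then phosphorylate the transcription factor STAT6, which turns on genes such as the chitinase-like proteins Ym1 (Chi3l3) and Ym2 (Chi3l4), the resistin-like molecule RELM-alpha (Retnla), arginase 1 (Arg1), the chemokines CCL17 and CCL22, and 12/15-lipoxygenase (Alox15). Ear1 and Ear2 belong to the eosinophil-associated ribonucleases, a family of secreted RNA-degrading proteins that some macrophages also make. Macrophages with this program are often called alternatively activated, and tumour macrophages frequently carry parts of it.

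The finding that these data turn on is a pair of secreted-protein genes, Chi3l3 and Ear1, that were high in 1 of the 2 EpiKO libraries. The stretches before their RefSeq start sites are shown beside those of their relatives Chi3l4 and Ear2, which had reads in that library alone, and that of Retnla is shown because its values did not follow theirs. Bases that lie in an annotated exon of the gene were left off the end nearest the start. Capitals mark a match to the motif that STAT6 prefers, TTCNNNNGAA, or to the shorter STAT motif TTCNNNGAA. Both motifs read the same on both strands, and no match of one overlapped a match of the other. Sequences are from RefSeq on GRCm38.p6, the same assembly as mm10, in the direction of the gene.
Chi3l3 (chr3:106167565-106167814, minus strand): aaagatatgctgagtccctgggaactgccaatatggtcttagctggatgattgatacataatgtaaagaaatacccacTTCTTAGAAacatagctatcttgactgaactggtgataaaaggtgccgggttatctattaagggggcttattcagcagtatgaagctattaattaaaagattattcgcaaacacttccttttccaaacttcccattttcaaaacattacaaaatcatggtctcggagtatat
Chi3l4 (chr3:106219508-106219729, minus strand): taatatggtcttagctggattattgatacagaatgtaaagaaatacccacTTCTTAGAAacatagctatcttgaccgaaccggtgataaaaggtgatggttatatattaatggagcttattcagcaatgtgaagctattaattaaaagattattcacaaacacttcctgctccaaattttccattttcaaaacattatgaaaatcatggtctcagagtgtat
Ear1 (chr14:43819640-43819889, minus strand): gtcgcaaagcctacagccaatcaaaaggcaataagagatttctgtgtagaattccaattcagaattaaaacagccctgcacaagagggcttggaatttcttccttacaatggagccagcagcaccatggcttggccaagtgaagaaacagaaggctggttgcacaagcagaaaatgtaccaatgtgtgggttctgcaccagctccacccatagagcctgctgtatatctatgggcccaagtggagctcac
Ear2 (chr14:44102404-44102653, plus strand): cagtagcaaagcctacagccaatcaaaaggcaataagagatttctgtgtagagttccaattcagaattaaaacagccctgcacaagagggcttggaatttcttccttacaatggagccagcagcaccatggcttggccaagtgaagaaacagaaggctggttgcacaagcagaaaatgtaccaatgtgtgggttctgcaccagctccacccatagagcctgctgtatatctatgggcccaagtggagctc
Retnla (chr16:48842359-48842550, plus strand): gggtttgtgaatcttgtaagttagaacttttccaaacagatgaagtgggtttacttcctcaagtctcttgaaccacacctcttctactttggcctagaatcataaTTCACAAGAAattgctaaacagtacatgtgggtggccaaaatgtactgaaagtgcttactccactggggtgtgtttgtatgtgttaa

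Over the 250 bases before the start, Ear1 and Ear2 were identical in 97.6% of aligned positions, and Chi3l3 and Chi3l4 in 72.4%. Chi3l3 and Chi3l4 each held 1 match of the shorter motif, with the same letters, and Ear1 and Ear2 held no match of either. Retnla held 1 match of the STAT6 motif. A promoter sequence was at hand for 9 of the 10 members. The STAT6 motif was found in 2 of them, Retnla and Ccl17, and in 5.85% of 32851 mouse promoters of the same length. The shorter motif was found in 3, Chi3l3, Chi3l4 and Ccl17, and in 7.02% of the promoters. The Ear1 stretch lies within the span that GENCODE gives that gene, outside its exons, because the GENCODE model starts farther upstream than the RefSeq one. A match is a description of letters and not a binding site, and a window without a match says nothing about the factor.

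The libraries held 15884132 to 21244158 gene reads each. All values below are read counts that the authors had normalised by a scaling factor for each library, in which a single read counts as 0.841 to 1.16. The sorted cells carried the RNA of their sort markers and lineage in all 4 libraries: Itgam, which encodes CD11b, ranged from 26151 to 40692, Cd200r1 from 293 to 1101, and the macrophage gene Csf1r from 45316 to 70480. DESeq2 called Cd200r1 higher in EpiKO (log2 fold change 1.49, adjusted p = 0.000248), while edgeR (adjusted p = 0.117) and limma did not. The RNA of a sort marker may thus differ between the groups. WT replicate 1 stood apart by the epidermal keratins among the 8 keratinocyte and tumour markers, with Krt14 at 1907 there against 8.61 to 28.6 in the other libraries. Krt8, a keratin of simple epithelia, was highest in EpiKO, at 1999 and 4164 against 446 and 234 in WT. Because these are bulk samples, fewer cells of a type and less RNA per cell cannot be told apart.

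Both receptor genes were abundant in every library and slightly higher in both EpiKO libraries. Il4ra, the chain that binds interleukin 4, had values of 11329 and 11424 in WT and of 14936 and 17128 in EpiKO. The groups did not overlap, and the WT libraries lay much closer together than the EpiKO libraries did. The WT mean was 11376 ± 67.5 (SD, n = 2) and the EpiKO mean 16032 ± 1550 (SD, n = 2). By limma the log2 fold change was 0.49 (SE 0.129) with an adjusted p of 0.167 (Benjamini-Hochberg), above the threshold of 0.05. DESeq2 on the recovered reads called Il4ra at an adjusted p of 0.0245 with a log2 fold change of 0.49. Il13ra1, the chain that joins Il4ra to form the receptor for interleukin 13, was at 2509 and 1842 in the WT pair, against 2984 and 2661 in the EpiKO pair. All EpiKO values lay above all WT values, but the gap was smaller than the distance between the WT libraries. Its log2 fold change was 0.39 (SE 0.179, adjusted p = 0.388 by limma), and 0.17 without WT replicate 2. Il4ra lies on chromosome 7 of mm10 from 125552120 to 125579474 and shares exon sequence with Gm44876 on the other strand. Il13ra1 lies on chromosome X from 36112110 to 36171259.

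**Figure D1:**
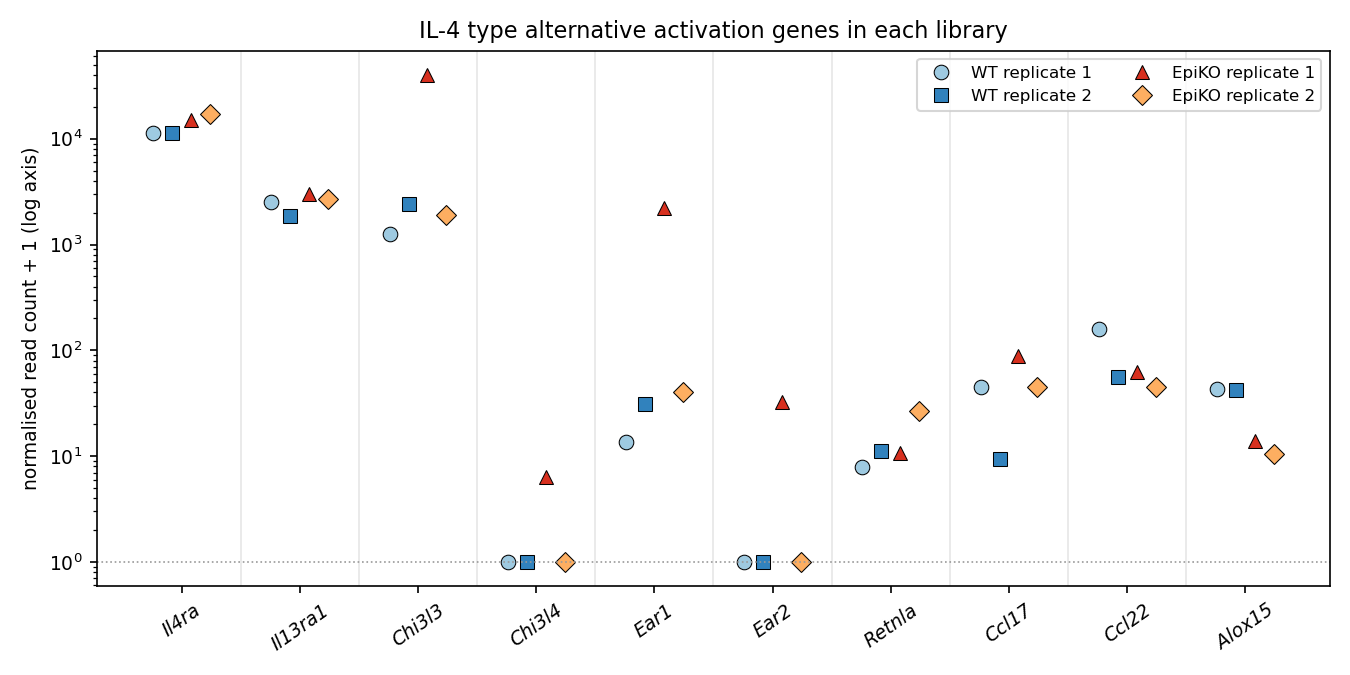
Normalised read count plus 1 (log axis) of the 10 genes in each of the 4 libraries, with 1 point per library and a dotted line at a count of 0. Chi3l3, Chi3l4, Ear1 and Ear2 were highest in EpiKO replicate 1, where Chi3l3 reached 39879 and Ear1 2224, while Il4ra and Il13ra1 were at similar levels in all libraries.

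Chi3l3, the gene of the chitinase-like lectin Ym1, had the highest value of all members in a single library. It was at 1263 and 2421 in WT, at 39879 in EpiKO replicate 1 and at 1898 in EpiKO replicate 2. EpiKO replicate 1 alone stood apart, at 16.5 times the higher WT library, and EpiKO replicate 2 lay between the WT libraries. The log2 fold change of EpiKO over WT was 2.31 (SE 1.43, adjusted p = 0.537 by limma), and without EpiKO replicate 1 it was 0.12. Chi3l3 took 0.213% of all gene reads in EpiKO replicate 1 and between 0.00686% and 0.0136% in the other libraries. Per kilobase of exon, its value of 24436 in EpiKO replicate 1 was above the 2488 of Il4ra there. In the other 3 libraries Chi3l3 was at 774 to 1483 per kilobase, below Il4ra at 1887 to 2854.

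Chi3l4, which encodes the related protein Ym2, had 5 reads in EpiKO replicate 1 and none in the other 3 libraries. A count of 0 allows up to 3 reads, a value of 2.52 to 3.48 depending on the library, so at this depth the difference is barely above the floor. Both genes lie on the minus strand of chromosome 3, Chi3l3 from 106147554 to 106167564 and Chi3l4 from 106201490 to 106219507, with 33925 bases between them. Of the 50-base windows of the Chi3l3 mRNAs, 17.9% also occur in Chi3l4. How the counting treated reads that fit both genes is not given in the sources used here, so the few Chi3l4 reads are uncertain.

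Ear1 followed the same libraries. It was at 12.7 and 30.3 in WT, at 2224 in EpiKO replicate 1 and at 39.7 in EpiKO replicate 2. Both EpiKO values exceeded both WT values, yet EpiKO replicate 2 was only 1.31 times the higher WT library where EpiKO replicate 1 was 73.5 times it. The log2 fold change was 3.86 (SE 1.89, adjusted p = 0.420 by limma), and without EpiKO replicate 1 it was 0.97. Ear2 had 29 reads in EpiKO replicate 1, a value of 31.2, and no read in the other 3 libraries. Against a floor of 3 reads per library, Ear2 was at least 11.0-fold higher in EpiKO replicate 1 than in EpiKO replicate 2. It was not tested, because only 1 library passed a value of 10.

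The 2 ribonuclease genes lie on chromosome 14, Ear1 from 43818765 to 43875517 on the minus strand and Ear2 from 44102654 to 44103534 on the plus strand. Ear1 shares exon sequence with the pseudogene Ear-ps9 on its own strand. Of the 50-base windows of Ear1, 23.8% occur in Ear2 and 16.9% in Ear10, so the split of reads among these copies is uncertain. Ear11, now called Rnase2a, lies on the same chromosome from 51255262 to 51256112 and shares none of its 50-base windows with Ear1, Ear2 or Ear10. Ear11 was at 1.16 and 1.68 in WT, at 118 in EpiKO replicate 1 and at 6.62 in EpiKO replicate 2. Like Ear1, it was highest in EpiKO replicate 1, with a ratio of 17.9 between the EpiKO libraries (95% interval 8.40 to 45.6, counting error only). Ear10 had 17 reads in EpiKO replicate 1, 1 in EpiKO replicate 2 and none in WT. The table lists 11 Ear genes. Reads were found for 5 of them, and their summed value was 15.1 and 31.9 in WT, 2394 in EpiKO replicate 1 and 48.2 in EpiKO replicate 2. Ear1 made up 92.9% of the Ear reads in EpiKO replicate 1.

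**Figure D2:**
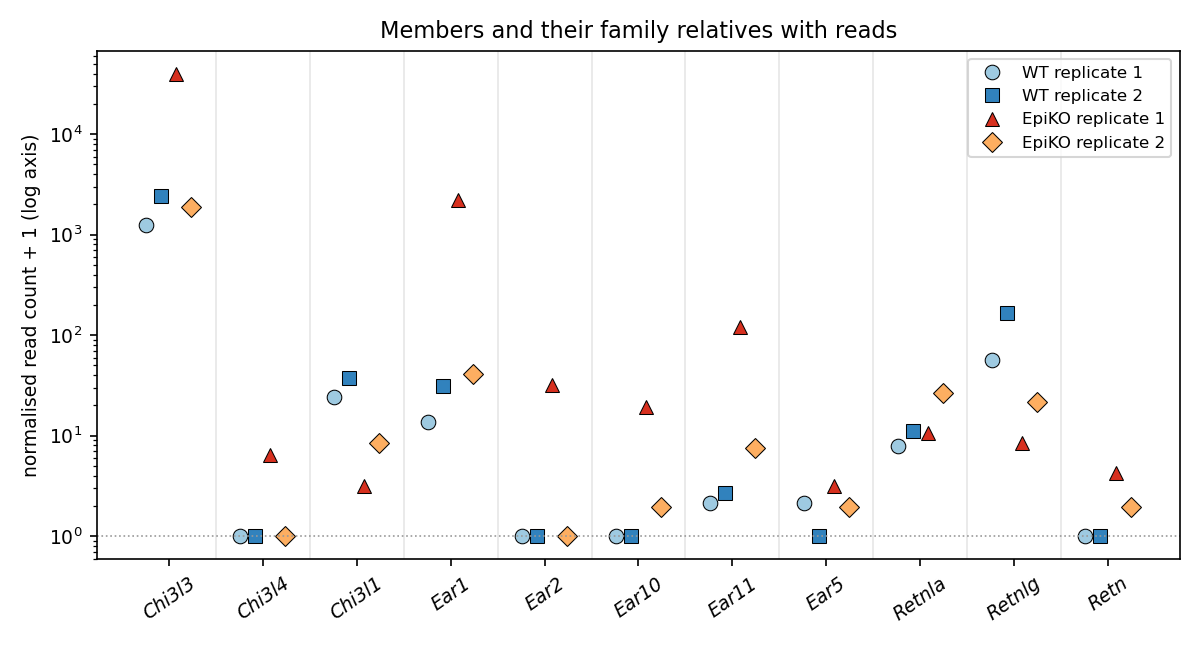
Normalised read count plus 1 (log axis) of chitinase-like, Ear and resistin-like genes that had a read in at least 1 library, apart from Chit1, with 1 point per library. Ear1, Ear2, Ear10 and Ear11 were highest in EpiKO replicate 1, whereas Chi3l1 and Retnlg were lowest there.

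A direct comparison of the 2 EpiKO libraries placed these genes at the far end of the transcriptome. The ratio of EpiKO replicate 1 to EpiKO replicate 2 was 56.0 for Ear1 (95% interval 41.3 to 78.0) and 21.0 for Chi3l3 (95% interval 20.1 to 22.0). These intervals are exact binomial ones and cover counting error only, since reads that carry no molecular identifier do not each stand for their own molecule, and with 1 library against 1 there is no test. On the log2(value + 1) scale, Ear1 ranked first and Chi3l3 ranked 4 among 12463 genes by this difference. Among the 10741 genes whose mean value reached 50 they ranked 1 and 2. Of the 8 members past the filter on low values, 2 were at least 2-fold higher in EpiKO replicate 1 and 1, Retnla, was at least 2-fold higher in EpiKO replicate 2. Of all genes past the filter, 6.51% differed that much, 2.61% and 3.9% in those directions. The other 5 stayed within 2-fold. The EpiKO ratio was 0.872 for Il4ra (95% interval 0.853 to 0.892), 1.12 for Il13ra1, 1.99 for Ccl17, 1.38 for Ccl22 and 1.37 for Alox15.

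The WT libraries differed from each other in other members. The ratio of WT replicate 1 to WT replicate 2 was 5.24 for Ccl17 (95% interval 2.56 to 11.8) and 2.86 for Ccl22 (95% interval 2.12 to 3.90). Ear1 was 2.37 times higher in WT replicate 2 (95% interval 1.18 to 5.17) and Chi3l3 1.92 times higher there (95% interval 1.79 to 2.06). Thus 3 of the 8 tested members differed at least 2-fold between the WT libraries, as did 5.39% of all genes past the filter. Of all genes past the filter, 4.1% were that much higher in replicate 1 and 1.29% in replicate 2. The median absolute log2 difference of the 8 was 0.71 within WT and 0.72 within EpiKO, against 0.18 and 0.19 over all genes past the filter.

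**Figure D3:**
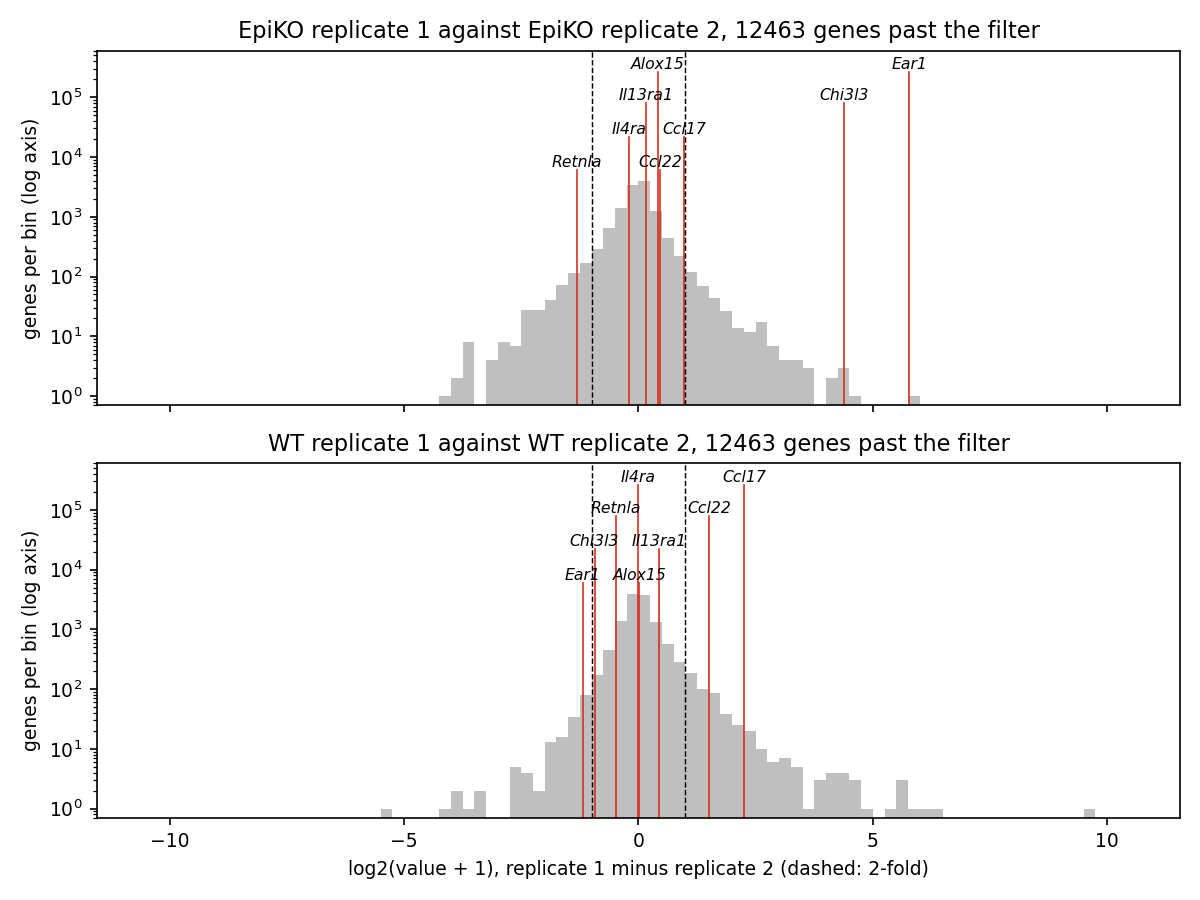
Histograms of the log2(value + 1) difference between the 2 EpiKO libraries (top) and between the 2 WT libraries (bottom) over 12463 genes, with a log axis for genes per bin, red lines at the 8 tested members and dashed lines at a 2-fold difference. Ear1 and Chi3l3 lie at 5.77 and 4.39 in the EpiKO panel, and Ccl17 at 2.26 in the WT panel.

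Retnla, among the most used marker genes of interleukin 4 treated mouse macrophages, was close to the floor throughout. It had 6 and 12 reads in the WT libraries, 9 in EpiKO replicate 1 and 27 in EpiKO replicate 2, which are values of 6.95, 10.1, 9.69 and 25.5. EpiKO replicate 2 was the highest library, and EpiKO replicate 1 lay between the WT libraries. The ratio of EpiKO replicate 2 to EpiKO replicate 1 was 2.63 (95% interval 1.20 to 6.37). The log2 fold change of EpiKO over WT was 0.84 (SE 0.643, adjusted p = 0.622 by limma), and it was 0.19 without EpiKO replicate 2 and larger than 0.84 without EpiKO replicate 1. So the library with the highest Chi3l3 did not have the highest Retnla. The gene lies on chromosome 16 from 48842551 to 48844461.

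The chemokine genes Ccl17 and Ccl22 encode both ligands of the receptor CCR4, which draws T helper 2 and regulatory T cells, and are neighbours on chromosome 8, from 94810453 to 94812036 and from 94745590 to 94751699. Ccl17 was at 44.0 and 8.41 in the WT pair, against 88.3 and 44.4 in the EpiKO pair. EpiKO replicate 2 and WT replicate 1 were nearly equal, so the groups were barely separated. The log2 fold change was 1.63 (SE 0.841, adjusted p = 0.448 by limma), and it ranged from 0.50 to 2.76 when 1 library was left out, with the highest value without WT replicate 1. Ccl22 went the other way, at 159 and 55.5 in the WT pair, against 61.4 and 44.4 in the EpiKO pair. Its groups overlapped, and WT replicate 1 was alone in being high. The log2 fold change was -0.84 (SE 0.550, adjusted p = 0.562 by limma), and without WT replicate 1 it was -0.086. Both chemokines are known from dendritic cells as well as macrophages, and of the 11 dendritic cell markers the summed value was 2069 and 1010 in WT and 470 and 975 in EpiKO, highest in WT replicate 1. One of them, the Langerhans cell gene Cd207, fell by limma (adjusted p = 0.0329). Its values were 1201 and 590 in WT and 23.7 and 23.6 in EpiKO. Cd207 made up most of the sum in WT and little of it in EpiKO, so the WT excess rests largely on this gene. Of the 8 tested dendritic cell markers, 4 had a positive and 4 a negative log2 fold change. The part of these cells in the chemokine values was not tested.

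Alox15 was the tested member with the smallest p. Its enzyme inserts oxygen into polyunsaturated fatty acids and is known from resident peritoneal macrophages and eosinophils. It was at 41.7 and 41.2 in the WT pair, against 12.9 and 9.45 in the EpiKO pair. The groups did not overlap, and replicates within each group lay close together. The WT mean was 41.5 ± 0.381 (SD, n = 2) and the EpiKO mean 11.2 ± 2.45 (SD, n = 2). The log2 fold change was -1.82 (SE 0.397, adjusted p = 0.120 by limma). Leaving out any 1 library kept it between -2.02 and -1.61, and no alternative called it, with adjusted p between 0.0753 and 0.392. The values rest on 36 and 49 reads in WT and on 12 and 10 in EpiKO. The gene lies on chromosome 11 from 70344152 to 70352031.

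Across the 8 tested members, none was called at an adjusted p under 0.05 by limma or by edgeR, and 1, Il4ra, was called higher by DESeq2. At an unadjusted p under 0.05, limma gave 1 higher, Il4ra, and 1 lower, Alox15, where 8.07% and 7.57% of all tested genes were higher and lower. Over all tested genes limma called 0.947%, of which 0.417% were higher and 0.53% lower in EpiKO. The shares were 0.842%, 0.385% and 0.457% for edgeR and 6.08%, 3.31% and 2.77% for DESeq2. Groups did not overlap for 4 members higher in EpiKO, Il4ra, Il13ra1, Ear1 and Ccl17, and for 1 lower, Alox15, while 47.1% of all tested genes had no overlap, 23.3% higher and 23.8% lower. The median log2 fold change of the 8 was 0.67 against -0.0021 over all tested genes, with 6 positive and 2 negative. Chi3l4 and Ear2 are outside these counts.

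**Figure D4:**
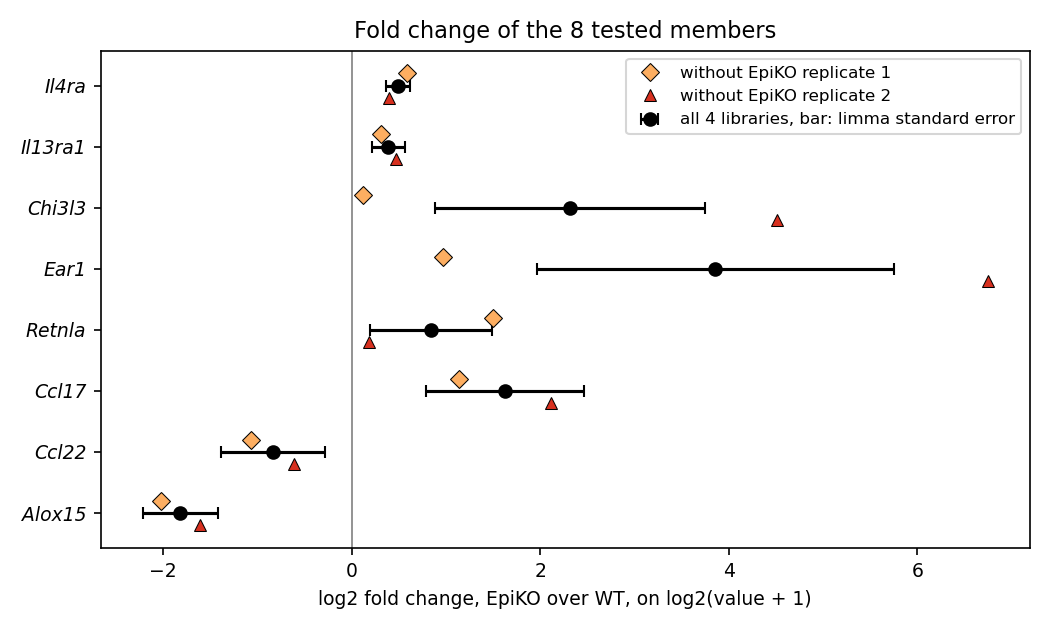
Log2 fold change of EpiKO over WT on the log2(value + 1) scale for the 8 tested members, with black points and bars for the limma estimate and its standard error, diamonds for the value without EpiKO replicate 1 and triangles for that without EpiKO replicate 2. Chi3l3 moves from 0.12 to 4.51 and Ear1 from 0.97 to 6.75 depending on which EpiKO library is kept, while Il4ra and Alox15 move little.

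The rest of the interleukin 4 and interleukin 13 axis was described with a list of 41 genes, of which 34 passed the filter. Of these, 1 fell and none rose by limma over all genes, and 33 did not pass. The gene that fell was Atp6v0d2, a subunit of the proton pump that STAT6 induces in fusing macrophages and that osteoclasts use. Atp6v0d2 was at 2694 and 2443 in the WT pair, against 324 and 178 in the EpiKO pair, which gave a log2 change of -3.41 (SE 0.296, adjusted p = 0.0336 by limma). The call was lost without WT replicate 1, without WT replicate 2 or without EpiKO replicate 2, at adjusted p of 0.165, 0.189 and 0.0539. At an unadjusted p under 0.05, 12 of the 34 were higher and 7 lower, beside 8.07% and 7.57% of all tested genes. Of the same 34, edgeR called none higher and 1 lower, beside 0.385% and 0.457% of all tested genes. DESeq2 called 5 higher and 5 lower, beside 3.31% and 2.77% of the genes it tested. The median log2 fold change of the list was 0.19, with 20 positive and 14 negative.

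The genes of ligands, receptors and signalling were looked at next, some of them chosen after their values were seen. Neither ligand gene, Il4 or Il13, had a read in any library, which allows up to 3 reads in each, and the same held for Ccr4 and Fcer2a. Il2rg, the common gamma chain, was at 2897 and 3284 in the WT pair, against 2163 and 1710 in the EpiKO pair. Both EpiKO libraries were lower, opposite to Il4ra, and the log2 fold change was -0.68 (SE 0.155, adjusted p = 0.131 by limma). DESeq2 called Il2rg at an adjusted p of 0.0144. Stat6 was at 4385 and 4813 in the WT pair, against 5517 and 5016 in the EpiKO pair (a log2 change of 0.20, adjusted p = 0.527 by limma). The kinases Jak1, Jak2, Jak3 and Tyk2 had log2 fold changes of 0.12, 0.18, 0.35 and 0.39, and none was called by limma. The genes that damp cytokine signalling did not share a direction. Socs1, an inhibitor of these kinases, was lower in both EpiKO libraries, with a log2 difference of -1.02 (SE 0.251, adjusted p = 0.151 by limma). Cish, of the same inhibitor family, had one of 1.97 (SE 0.592, adjusted p = 0.217 by limma), and the phosphatase gene Ptpn6 one of 0.059 (adjusted p = 0.897 by limma). DESeq2 called Cish at an adjusted p of 0.0207.

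Among the other genes of the list, the difference between the EpiKO libraries recurred in several and was absent or small in others. Arg1, arginase 1, was at 10187 and 9175 in WT, at 54192 in EpiKO replicate 1 and at 16393 in EpiKO replicate 2. All EpiKO values lay above WT, and EpiKO replicate 1 stood far above the rest. Its log2 fold change was 1.62 (SE 0.563, adjusted p = 0.271 by limma), and it was 0.76 without EpiKO replicate 1. Mrc1, the mannose receptor, was at 44319 and 37127 in the WT pair, against 61387 and 67477 in the EpiKO pair. It did not share the pattern of Arg1: EpiKO replicate 2 was the higher of the pair (log2 fold change 0.67, SE 0.162, adjusted p = 0.146 by limma). DESeq2 called Mrc1 higher in EpiKO at an adjusted p of 0.00264. F13a1 and Kdm6b, picked afterwards for their small p, also had EpiKO libraries close together. F13a1 was at 25605 and 19996 in WT, against 51773 and 53702 in EpiKO (adjusted p = 0.0551 by limma). Kdm6b was lower in EpiKO, at 3798 and 3238 against 6611 and 6802 in WT (adjusted p = 0.0540 by limma). DESeq2 called F13a1 higher at an adjusted p of 4.89e-09 and Kdm6b lower at an adjusted p of 1.40e-06. Of the 34 tested genes 6 were at least 2-fold higher in EpiKO replicate 1 than in EpiKO replicate 2 and none the reverse, against 2.61% and 3.9% of all genes past the filter. Between the WT libraries too, 6 were at least 2-fold higher in replicate 1 and none the reverse, against 4.1% and 1.29% of all genes past the filter. The 6 that were higher in EpiKO replicate 1 were Arg1, Pparg, Slc7a2, Pdcd1lg2, Fn1 and Clec7a, all but Arg1 named after their values were seen. Slc7a2, a transporter of arginine, was at 650 and 317 in the WT pair, against 2988 and 947 in the EpiKO pair. Pparg, a lipid-sensing transcription factor, was at 77.7 and 80.7 in WT, at 163 in EpiKO replicate 1 and at 28.4 in EpiKO replicate 2, the widest EpiKO ratio of the list at 5.73 (95% interval 3.86 to 8.79) among its tested genes.

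**Figure D5:**
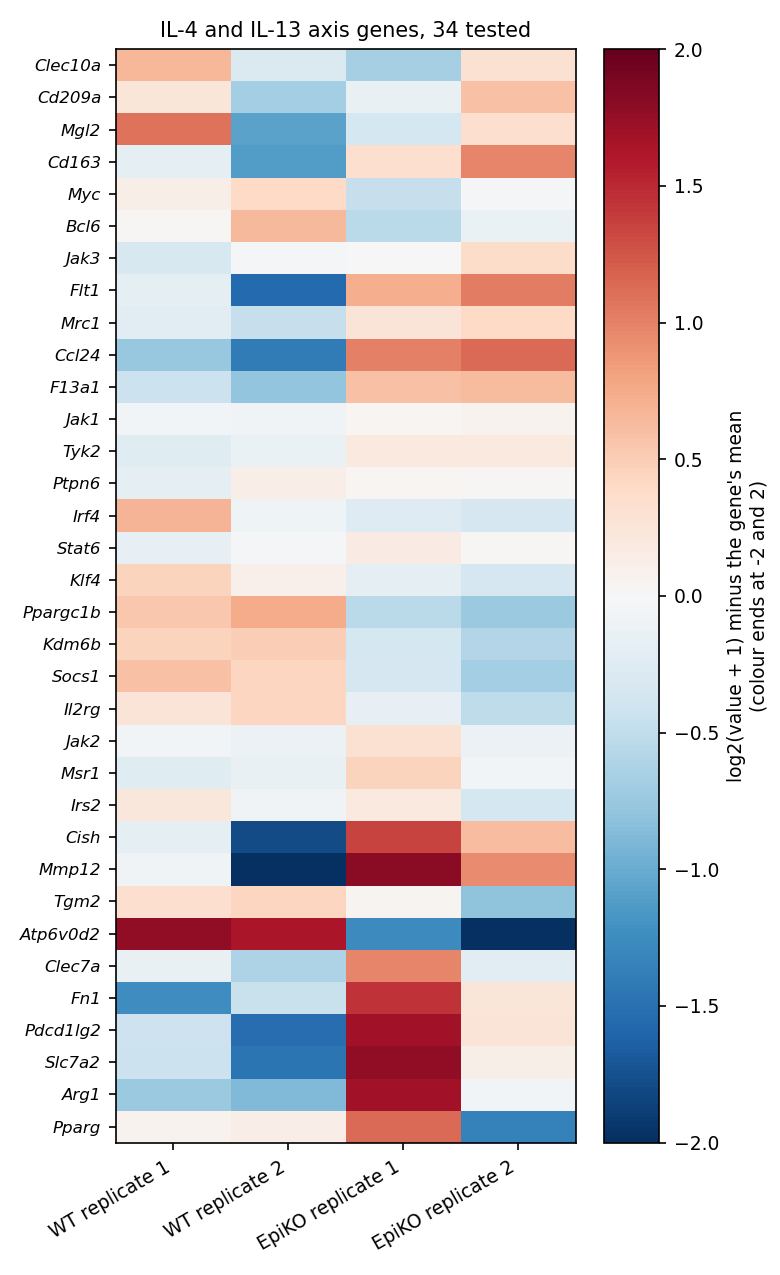
Log2(value + 1) minus the gene's mean over the 4 libraries for the 34 tested genes of the interleukin 4 and interleukin 13 axis, in rows ordered by the difference between the EpiKO libraries, with colour running from -2 to 2. The lowest rows, from Clec7a to Pparg, are reddest in EpiKO replicate 1, and Atp6v0d2 is dark in opposite colours in WT and EpiKO.

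Relatives of the members were read from a list of 26 genes, of which 7 passed the filter and 10 had no read in any library. None of the 7 was called by limma or edgeR, while 2 were higher and 3 lower at an unadjusted p under 0.05, as were 8.07% and 7.57% of all tested genes. DESeq2 called 1 of the 7 higher, Ccl24, and 2 lower, Ccl11 and Retnlg, beside 3.31% and 2.77% of all genes it tested. The DESeq2 adjusted p was 0.000248 for Ccl24, 0.00608 for Ccl11 and 0.00354 for Retnlg. By the smallest p the 7 were led by the chemokine genes Ccl24 and Ccl11 and by Retnlg. Ccl24, an eosinophil attractant, was at 35.9 and 22.7 in the WT pair, against 124 and 136 in the EpiKO pair (a log2 change of 2.14, SE 0.323, adjusted p = 0.0615 by limma). Its EpiKO libraries were alike, in contrast to Chi3l3 and Ear1. Ccl11, also an eosinophil attractant, was at 91.6 and 59.7 in the WT pair, against 18.3 and 7.56 in the EpiKO pair (a log2 change of -2.54, adjusted p = 0.110 by limma). Retnlg, a resistin-like gene of neutrophils, was at 55.6 and 166 in the WT pair, against 7.54 and 20.8 in the EpiKO pair. Chi3l1, a chitinase-like relative of Chi3l3 picked on sight of its values, stood at 23.2 and 36.1 in the WT pair, against 2.15 and 7.56 in the EpiKO pair, so it was lowest where Chi3l3 was highest.

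By profile over the 4 libraries, measured as the Euclidean distance between log2(value + 1) values centred on each gene's mean, the genes outside the set nearest to Chi3l3 among 10736 were Spink2, 1810033B17Rik and Ms4a8a, at distances of 1.28, 1.55 and 1.64. Spink2, a protease inhibitor gene, was at 42.9 and 38.7 in WT, at 601 in EpiKO replicate 1 and at 77.5 in EpiKO replicate 2. All of them had their highest value in EpiKO replicate 1, which largely follows from their choice by nearness to Chi3l3. Of the members, Ear1 was nearest to Chi3l3, at 1.84, and Ccl17 next, at 3.38. Nearest to Retnla were P2rx1, Cand2 and Bcat1, at 0.28, 0.33 and 0.35. Each was highest in EpiKO replicate 2, which likewise largely follows from the choice. With 4 libraries such distances describe these libraries only.

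Markers of other cells that can make these proteins were set beside the 2 EpiKO libraries. Of the 6 eosinophil markers, the granule protein genes Prg3 and Epx had no read in any library and Prg2 had none in either EpiKO library. Their summed value was 91.6 and 80.7 in WT, 75.4 in EpiKO replicate 1 and 178 in EpiKO replicate 2. Most of the sum was Ccr3, with 77.7 and 59.7 in the WT pair against 21.5 and 55.8 in EpiKO replicates 1 and 2, and Siglec5, at 53.8 in EpiKO replicate 1 and 122 in EpiKO replicate 2. Between the groups these 2 genes went opposite ways. DESeq2 called Siglec5 higher in EpiKO (log2 fold change 2.49, adjusted p = 0.00676), while limma and edgeR did not. Ccr3 had a log2 fold change of -0.82 by DESeq2 (adjusted p = 0.777). Siglec5 was read as Siglecf, the eosinophil gene, but the symbol has also been used for Siglece, so that reading is uncertain. The 11 neutrophil markers found summed to 1543 and 3047 in WT, 4532 in EpiKO replicate 1 and 2452 in EpiKO replicate 2. Of the 4532, Mmp8 made up 3757, while Ngp had 1 read and Camp, Mpo and Elane had none in that library. Of the 8 tested neutrophil markers, 3 were at least 2-fold higher in EpiKO replicate 1 and 4 in EpiKO replicate 2. Of all genes past the filter, 2.61% and 3.9% differed that much in those directions. The 9 basophil and mast cell markers summed to 291 and 69.8 in WT and to 171 and 148 in EpiKO. Within them, Tpsb2, Cpa3 and Cma1 were higher in EpiKO replicate 1 than in EpiKO replicate 2, and highest in WT replicate 1. The 10 macrophage and monocyte markers summed to 353149 and 309685 in WT and to 469729 and 392361 in EpiKO. Lyz2 was highest in EpiKO replicate 1, where it made up 325763 of the 469729, so that sum rests largely on this gene. As a set the 10 did not share a direction: 6 were higher in EpiKO and 4 lower, and neither limma nor edgeR called any. DESeq2 called 1 of them higher, Cd200r1, beside 3.31% of all genes it tested. Csf1r was lowest in EpiKO replicate 1, at 45316. The 6 T and NK cell markers found summed to 1762 and 577 in WT, 103 in EpiKO replicate 1 and 899 in EpiKO replicate 2. Nearly all of that was Cd4, at 100.1 and 893 in EpiKO, while Cd3e and Cd3d had no read in either EpiKO library. The part of eosinophils, neutrophils, mast cells and T cells in the difference between the EpiKO libraries was not tested.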

How the data were processed

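Expression was measured by RNA-seq in 2 WT and 2 EpiKO libraries. Per the submitters' processing notes, the authors used STAR 2.5.2b, bcl2fastq 2.17, DESeq2 and featureCounts 1.5.0-p3 on mm10. No annotation, strand setting or rule for multiply aligned reads is given in the sources used here. For a gene, the deposited signal is its read count, which the authors scaled by a size factor of the library. All values were whole multiples of 1 read (100% within 1e-06), which gave back the reads.

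Values were tested as log2(value + 1) by limma 3.58.1 in R 4.3.3 (trend, robust, two-sided) on the 12463 genes that reached 10 in 2 or more libraries, with Benjamini-Hochberg adjustment over them and calls at 0.05. Fold changes on this scale understate those of low genes. An exact permutation test of 2 against 2 cannot go below p = 0.333. On the reads, edgeR 4.0.16 (quasi-likelihood, TMM, same genes) and DESeq2 1.42.0 were alternatives, and the code was tested on simulated data. Ratios of single libraries have exact binomial 95% intervals. Coordinates and exon lengths are from GENCODE M21. Chi3l3 and Chi3l4 were matched to RefSeq as Chil3 and Chil4, and the list entries Adgre1 and Rnase2a were found as Emr1 and Ear11. Siglec5 was taken for Siglecf because Siglece has its own row, which leaves the match uncertain. Ly6g and Trac were not used here.

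Members and lists were chosen with earlier results of these data known. The naming rule takes all 10 members, the called genes of the pathway list or else the 3 with the smallest p of a list, Arg1, Mrc1, Stat6 and Il2rg, and the 3 nearest profiles to Chi3l3 and to Retnla. Other genes were named after their values were seen.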

Additional observations from a re-analysis of the deposited data

How the results depend on the processing

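Every tested member kept the direction of its fold change under each alternative run: a pseudocount of 0.5 or 5, no filter, a minimum value of 50 (where the member passed it), quantile normalization, equal library totals, limma without trend, edgeR, DESeq2 and leaving out each library. No member was called higher or lower when 1 library was left out (0 to 0 calls in each direction). DESeq2 called 1 member higher, Il4ra. Of all 41 pathway genes, no filter gave 1 higher and 2 lower, and a threshold of 0.1 gave 2 higher and 3 lower. DESeq2 gave 6 higher, with Ear11 that the filter had left out, and 5 lower, beside 3.31% and 2.77% of all genes it tested. With limma without trend, 0 were lower. Shares over all genes were not computed for no filter, a threshold of 0.1, limma without trend or the fits that left out 1 library. Counts of calls from those runs, of members and of pathway genes, therefore have no share to be read against. Leaving out 1 library gave 0 to 0 pathway genes higher and 0 to 1 lower. The cause of these changes was not tested, and leaving out a library leaves fewer samples. In those fits the lone library was taken to vary as the intact group does. Without EpiKO replicate 1 the log2 fold change of Chi3l3 was 0.12 and without EpiKO replicate 2 it was 4.51, and Ear1 was at 0.97 and 6.75. The log2 difference between the EpiKO libraries moved past its counting interval in 3 cases. For Il4ra it went from -0.20 to -0.23 with equal library totals and -0.26 with quantile normalization. For Ear2 it went from 5.01 to 2.86 with a pseudocount of 5. No paired analysis was possible because the labels carry no replicate numbers shared by the groups. Depth limits Chi3l4, Ear2 and Retnla, each with 29 reads or fewer in any library.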
